A study of Homo sapiens with 6 samples.

Results

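Promoter sites at which DPF3a, SMAD4 and p300 were all found are described here for 786-O, an established cell line derived from a clear cell renal carcinoma. A member is a DPF3a peak that overlapped a SMAD4 peak and a p300 peak, each by at least 0.5 of both peaks, and whose summit lay within 1000 bp of the start of any annotated transcript. Of the 51530 DPF3a peaks, 4704 met this rule, which is 9.13% (95% interval 8.88 to 9.38). They made up 60.2% (59.1 to 61.2) of the 7820 sites of all 3 factors and 37.0% (36.2 to 37.9) of the 12703 DPF3a peaks at promoters. They took in 10.1% of the 46367 SMAD4 peaks and 23.1% of the 20380 p300 peaks, with a different SMAD4 and p300 peak for each member.

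Binding was mapped by chromatin immunoprecipitation followed by sequencing (ChIP-seq), with 2 libraries for each of HA-DPF3a, SMAD4 and p300 and 1 peak list per factor made from both. DPF3a was pulled down with an antibody to its HA tag from cells that overexpress the tagged protein from a lentiviral construct, after fixation with the protein crosslinker DSG and formaldehyde, so the peaks are those of an added protein and not of the endogenous one. SMAD4 and p300 were pulled down with antibodies to the endogenous proteins after formaldehyde alone, and whether those cells carried the DPF3a construct is not stated in the labels. Factor, antibody, fixation and possibly cells therefore cannot be told apart in any difference between lists, and neither an untreated group nor a spread between replicates enters the values below. Intervals of shares are 95% Wilson intervals and those of differences Newcombe intervals, except for motif differences at equal GC content, whose intervals are symmetric around the difference. They cover counting error only, since the peaks of 1 list are not replicates.

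DPF3a is an isoform of DPF3, an accessory subunit of the BAF form of the SWI/SNF complex, which moves and evicts nucleosomes. SMAD4 is the partner that receptor-activated SMAD proteins of the TGF-β and BMP pathways need in order to act on chromatin, and p300 is an acetyltransferase that marks histones at active promoters and enhancers. Promoters of most widely expressed genes lie in CpG islands, start transcription in both directions and hold a nucleosome-depleted stretch flanked by positioned nucleosomes.

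The members were chosen by the measured peaks themselves, through the score minimum, the overlap and the summit position, so their number, their strength and the closeness of their 3 summits are given as a description with no test. Sequence, the orientation of annotated starts and the identity of the genes were not used to choose them. Members were compared with 3 other classes. These were 3456 promoter DPF3a peaks shared with SMAD4 that touched no p300 peak, 1317 promoter DPF3a peaks that touched neither other list, and 3116 sites of all 3 factors outside promoters. A further 3226 promoter DPF3a peaks fell in none of these classes.

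Windows reaching 50 bases to either side of the DPF3a summit show the kinds of sequence under the members. They are printed because the motif they carry separated members from the other classes or marked a group among the members. For each motif the windows belong to the members that rank highest by the product of their fold enrichment percentiles in the 3 lists, among those with no annotated exon in the window. They are read from hg38 in the direction of transcription of the nearest protein-coding gene, and the match is in capitals. The first pair carries the AP-1 site TGACTCA or its complement, bound by FOS and JUN dimers, at WSB2, a substrate receptor of a ubiquitin ligase, and ARAP2, a GTPase-activating protein for ARF.
WSB2, chr12:118052612-118052712, minus strand: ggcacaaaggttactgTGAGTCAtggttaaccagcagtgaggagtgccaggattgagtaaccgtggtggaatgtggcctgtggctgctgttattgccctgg
ARAP2, chr4:36244542-36244642, minus strand: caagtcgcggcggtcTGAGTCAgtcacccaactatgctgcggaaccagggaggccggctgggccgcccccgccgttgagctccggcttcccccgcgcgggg

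The second pair carries the ETS site CCGGAAGT, at RIOK3, an atypical kinase, and UBE2N, a ubiquitin-conjugating enzyme that builds K63-linked chains.
RIOK3, chr18:23453116-23453216, plus strand: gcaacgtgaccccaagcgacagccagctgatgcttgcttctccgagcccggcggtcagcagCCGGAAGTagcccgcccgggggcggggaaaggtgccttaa
UBE2N, chr12:93441962-93442062, minus strand: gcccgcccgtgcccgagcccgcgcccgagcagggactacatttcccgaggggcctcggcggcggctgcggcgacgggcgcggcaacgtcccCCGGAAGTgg

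The last 3 windows carry the NRF1 site CGCATGCG at GOLGA1, a golgin of the trans-Golgi, the YY1 site AAGATGGCG at ZNF92, a zinc finger gene, and the GC-rich SMAD element GGCGCC at ZNF641, another zinc finger gene.
GOLGA1, chr9:124941127-124941227, minus strand: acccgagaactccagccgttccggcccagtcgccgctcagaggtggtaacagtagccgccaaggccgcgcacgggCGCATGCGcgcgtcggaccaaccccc
ZNF92, chr7:65374105-65374205, plus strand: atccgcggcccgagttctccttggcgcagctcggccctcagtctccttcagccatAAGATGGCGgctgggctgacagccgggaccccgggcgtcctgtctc
ZNF641, chr12:48351053-48351153, minus strand: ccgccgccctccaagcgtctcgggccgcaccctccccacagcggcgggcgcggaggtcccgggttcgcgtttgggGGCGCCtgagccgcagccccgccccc

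Relative to the start of the gene, with negative values upstream, the DPF3a summit of these windows lay at -58 bp for WSB2, -78 bp for ARAP2, -121 bp for RIOK3, -65 bp for UBE2N and -94 bp for GOLGA1, and at 274 bp and 135 bp for ZNF92 and ZNF641. At ARAP2 the DPF3a, SMAD4 and p300 peaks had fold enrichments of 10.2, 11.1 and 6.43, and at UBE2N 5.09, 8.66 and 5.08. Fold enrichment is the read pileup at the summit over the local background, each plus 1, and can be compared between sites of 1 list but not between lists.

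Nearly all members were promoters of protein-coding genes. A protein-coding start lay within 1000 bp of the DPF3a summit at 4258 members (90.5%, 89.6 to 91.3), and 446 members (9.48%) had starts of noncoding genes only. The share was 74.4% (72.9 to 75.8) at promoter DPF3a-SMAD4 peaks without p300 and 59.3% (56.6 to 61.9) at promoter DPF3a peaks that touched neither list. Members exceeded these by 16.2 percentage points (14.5 to 17.8) and 31.2 percentage points (28.5 to 34.0). The members covered 6535 genes, among them 4801 protein-coding and 1485 lncRNA genes. The 4801 are 24.0% of the 20033 protein-coding genes, against 48.7% with a DPF3a summit, 62.6% with a SMAD4 summit and 43.0% with a p300 summit within 1000 bp of a start. All 3 lists had a summit at 7110 protein-coding genes, and at 4782 of these (67.3%, 66.2 to 68.3) a member was counted. The remaining genes had summits of all 3 factors near some start without peaks that overlapped by the rule.

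By strength, members were close to the other promoter DPF3a peaks and below the sites of all 3 factors outside promoters. The median fold enrichment of DPF3a was 5.97 (quartiles 5.17 and 7.03) at members, 6.17 at promoter DPF3a-SMAD4 peaks without p300, 5.76 at promoter peaks touching neither list and 9.84 at sites of all 3 factors outside promoters. In reads at the summit, as recovered from the deposited values, the DPF3a median was 23 at members and 55 at sites outside promoters. For SMAD4 the order differed. The median fold enrichment was 8.97 (7.67 and 10.3) at members, 8.71 at sites outside promoters and 6.77 at promoter DPF3a-SMAD4 peaks without p300, with 82 reads at the median summit of members. The p300 medians were 4.90 at members and 4.65 outside promoters. The p300 summits of members had 29 reads at the median and 14 at the lowest.

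The rule has 3 thresholds, and members lay close to each. The farthest DPF3a summit was 1000 bp from a start and the nearest one left out was at 1008 bp. There were 16 members in the last 50 bp within the limit and 11 sites of all 3 factors in the first 50 bp beyond it. The smallest overlap, as a share of the larger peak, was 0.501 for SMAD4 and 0.50 for p300, and 2142 promoter DPF3a peaks that touched both lists fell below it, with a largest value of 0.4997. Of these, 482 reached 0.45. A score of 51 to 60, just above the minimum of 50, was given to the DPF3a peak of 357 members (7.59%), the SMAD4 peak of 4 and the p300 peak of 550 (11.7%). With a score over 100 in every list, 1187 members remained.

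The summits of the 3 factors did not lie at the same place around the start. Positions were measured from the canonical protein-coding start, which lay within 1000 bp of the DPF3a summit at 3811 members, with positive values downstream. The median DPF3a position was 34 bp (quartiles -158 and 142). The SMAD4 median was 29 bp (-122 and 98), and that of p300 was 106 bp (-132 and 200). The p300 summit was downstream of the start at 66.8% of the sites, against 55.4% for DPF3a and 55.5% for SMAD4. Within 50 bp of the start lay 20.2% (18.9 to 21.5) of the SMAD4 summits, 15.4% (14.2 to 16.5) of the DPF3a summits and 7.82% (7.01 to 8.71) of the p300 summits. In the 25 bp bin at the start itself, 3.86% of the SMAD4, 3.59% of the DPF3a and 1.81% of the p300 summits were found. This was less than in the fullest bin on either side, but more than the 3.02%, 2.23% and 1.34% in the bin at -50 bp.

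**Figure D1:**
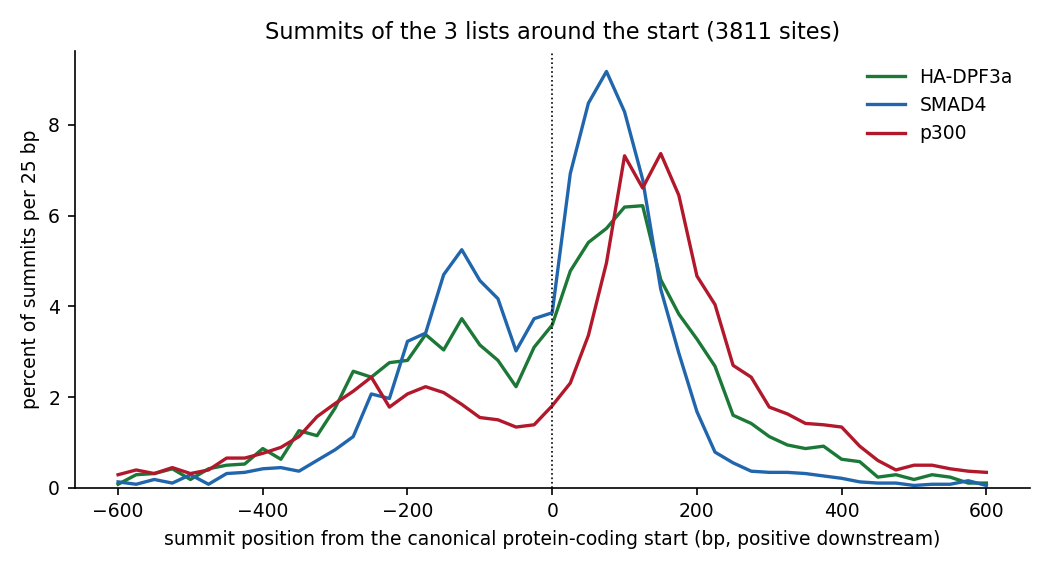
Percent of summits per 25 bp (vertical axis) against their position from the canonical protein-coding start in bp (horizontal axis), for the 3811 members with such a start within 1000 bp, 1 line per factor. SMAD4 was most frequent in the bin at 75 bp (9.18%), DPF3a at 125 bp (6.22%) and p300 at 150 bp (7.37%), and each line has a lower second maximum upstream, at -125 bp for SMAD4 (5.25%) and DPF3a (3.73%) and at -250 bp for p300 (2.44%).

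The order of the summits along the gene was followed at the 2459 of these members without a divergent start. The p300 summit lay downstream of the SMAD4 summit at 65.2% (63.3 to 67.1) of those where both positions differed, and downstream of the DPF3a summit at 61.2% (59.3 to 63.1). Between DPF3a and SMAD4 there was little order, with SMAD4 downstream at 48.4% (46.4 to 50.4). Regardless of direction, the median distance was 80 bp between DPF3a and SMAD4 summits, 124 bp between DPF3a and p300 and 118 bp between SMAD4 and p300. Within 50 bp of each other were 35.0% of the DPF3a-SMAD4 pairs, 24.8% of the DPF3a-p300 pairs and 27.1% of the SMAD4-p300 pairs. Peaks of members were wide beside these distances, with median widths of 773, 934 and 851 bp in the DPF3a, SMAD4 and p300 lists.

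By annotation of the canonical transcripts, 945 DPF3a summits (20.1%, 19.0 to 21.3) lay in an untranslated exon of a protein-coding gene, 450 (9.57%) in a coding exon, 368 (7.82%) in an exon of a noncoding gene, 2058 (43.8%) inside a gene but outside its canonical exons, and 883 (18.8%) outside genes. SMAD4 summits were in untranslated exons more often, at 26.4% (25.2 to 27.7). For p300, summits were in coding exons at 14.2% (13.3 to 15.2) and outside genes at 12.6% (11.7 to 13.6) of the members.

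Members often lay near starts of genes that are transcribed away from each other. Whether the summit lay between the 2 starts was not asked. A divergent start was counted where a minus-strand start lay left of a plus-strand start of another gene by at most 1000 bp, with both within 1000 bp of the DPF3a summit. This held for 1453 members, 30.9% (29.6 to 32.2), and for 25.9% (25.3 to 26.5) of the canonical starts of all protein-coding genes, where the start took the place of the summit. It held for 11.3% of the promoter DPF3a-SMAD4 peaks without p300 and for 3.42% of the promoter DPF3a peaks touching neither list. The members' excess was 19.6 percentage points (17.9 to 21.3) over the first class and 27.5 (25.7 to 29.1) over the second. Among CpG-rich sites alone, a restriction added after the data were seen, the excess over the first class was 9.59 percentage points (6.73 to 12.3). With protein-coding genes only, 11.0% of the members were at divergent starts and the excess was 6.47 (5.33 to 7.60). At 678 members (14.4%) starts of 2 or more protein-coding genes lay within reach.

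The members were CpG islands for the most part. Within 150 bp on either side of the DPF3a summit, the median CpG observed over expected, the number of CG dinucleotides relative to that given by the C and G content, was 0.841 (quartiles 0.711 and 0.945). It was 0.386 (0.209 and 0.793) at promoter DPF3a-SMAD4 peaks without p300, 0.202 (0.108 and 0.312) at promoter DPF3a peaks touching neither list and 0.267 (0.169 and 0.392) at sites of all 3 factors outside promoters. The median GC content was 68.1% at members, 56.5%, 44.9% and 54.2% in these classes, and 65.8% around the canonical starts of all protein-coding genes. A window was called CpG rich with a ratio over 0.6 and GC over 50%. This was so for 83.9% (82.8 to 84.9) of the members, 36.6% (35.0 to 38.3), 2.43% (1.73 to 3.41) and 8.76% (7.82 to 9.81) of the 3 classes, and 67.8% (67.2 to 68.5) of all protein-coding starts. The members' excess over the promoter DPF3a-SMAD4 peaks without p300 was 47.2 percentage points (45.3 to 49.1).

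**Figure D2:**
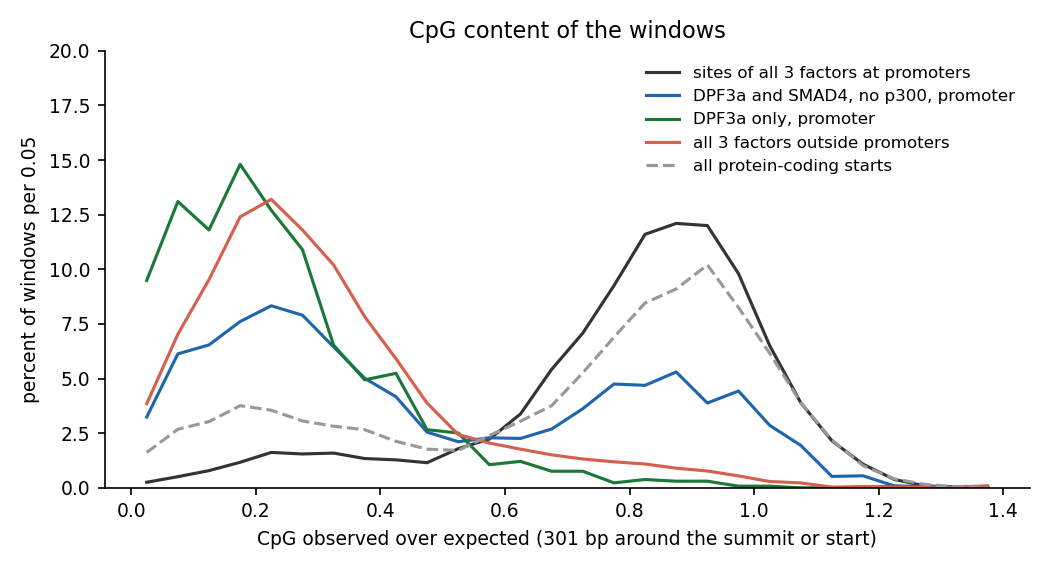
Percent of windows per 0.05 (vertical axis) against CpG observed over expected within 150 bp of the summit or start (horizontal axis), for members, the 3 other classes and the canonical starts of all protein-coding genes. Members form 1 main maximum near their median of 0.841, promoter DPF3a-SMAD4 peaks without p300 fall on both sides of 0.6 and the 2 remaining classes lie mostly below it, with medians of 0.202 and 0.267.

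Seen from the genes, promoters were split by the sequence within 500 bp of the canonical start into 8418 of high, 6096 of intermediate and 5519 of low CpG content. A member summit lay within 1000 bp of that start at 34.0% (33.0 to 35.0) of the high class, 22.4% (21.3 to 23.4) of the intermediate class and 1.34% (1.07 to 1.68) of the low class. Each list alone followed the same order, from 63.1% to 8.14% for DPF3a, 82.4% to 10.3% for SMAD4 and 58.7% to 3.24% for p300. Low-CpG promoters with a member were thus few, 74 of 5519. They are a count of canonical starts and not of members, of which 83.9% were CpG rich around their own summit.

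Motifs set the members apart from the other DPF3a sites mainly by the rarity of AP-1. Exact matches to 18 consensus sequences, on both strands, were counted within 50 bp of the DPF3a summit. For all protein-coding genes the windows lay around the canonical start instead. Besides those named below the sequences were TGACGTCA and TGACGCA of CREB and ATF, CCAATNNG of NF-Y, CACGTG of MYC and USF proteins, GTCTAGAC of SMAD3 and SMAD4, CTACAANTC of ZNF143 and CAGNAGGGG of CTCF. Intervals of shares are as above, and the 54 differences between members and the 3 classes have intervals widened for that number. AP-1 (TGACTCA) was present at 231 members, 4.91% (4.33 to 5.57). It was present at 16.8% (15.6 to 18.1) of the promoter DPF3a-SMAD4 peaks without p300, 22.6% of those touching neither list and 27.6% (26.1 to 29.2) of the sites outside promoters. The differences were -11.9 percentage points (-14.3 to -9.59), -17.7 (-21.9 to -14.0) and -22.7 (-25.6 to -19.9). In classes of equal GC content the differences were -6.53 (-8.73 to -4.32), -14.1 (-24.2 to -4.01) and -12.8 (-16.5 to -9.24). Among CpG-rich sites only, the difference from the first class was -1.70 (-3.90 to -0.136). Within the members AP-1 was nonetheless centred on the summit. In 2 flanking windows of nearly equal total length 500 bp away, 0.787% of the members held it, a 6.24-fold lower share, and around the starts of all protein-coding genes the share was 1.09% (0.954 to 1.24).

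The 231 members with AP-1 differed from the members without it. The nearest start was within 250 bp at 61.0% of them, against 85.2% of the members without AP-1, a difference of -24.2 percentage points (-30.7 to -18.1). A protein-coding start was within reach at 65.8% against 91.8% (-26.0, -32.4 to -20.1), the window was CpG rich at 29.0% against 86.7% (-57.7, -63.2 to -51.5), and starts were divergent at 12.1% against 31.9% (-19.7, -23.6 to -14.7). The median fold enrichment of DPF3a was 8.96 at members with AP-1 and 5.91 without, whereas it was 8.65 and 8.99 for SMAD4 and 4.46 and 4.92 for p300.

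Sites of general promoter factors were found at few members. ETS (CCGGAAGT) was present at 1.62% (1.29 to 2.02) of the members and 0.637% (0.421 to 0.962) of the promoter DPF3a-SMAD4 peaks without p300, a difference of 0.979 percentage points (0.171 to 1.78), which was 0.524 (-0.495 to 1.54) at equal GC content. Around all protein-coding starts the share was 3.93% (3.67 to 4.21). The 76 members with an ETS site had their DPF3a summit 16 bp from a start at the median, against 90 bp for all members, and the 35 with YY1 (AAGATGGCG), 0.744% of the members and 2.24% of all protein-coding starts, had it 18 bp away. The DPF3a summit was within 250 bp of a start at 96.1% and 97.1% of the members that held these sites, beside 84.1% of all members. The distance of the match itself from the start was not measured. NRF1 (CGCATGCG) was at 0.468% of the members and 1.24% of all starts. SP/KLF (GGGGCGGGG) was at 5.14% (4.55 to 5.81) of the members, 0.532% (0.258 to 1.09) of the promoter DPF3a peaks touching neither list and 9.09% of all starts. Shares at members and at all starts belong to different positions of the promoter. Of the members with a canonical start within reach, 15.4% had their DPF3a summit within 50 bp of it.

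RUNX (TGTGGTT) and TEAD (GGAATG), factors of enhancers in many cell types, had fewer matches at members. RUNX was at 1.30% (1.01 to 1.66) against 5.44% (4.73 to 6.25) of the promoter DPF3a-SMAD4 peaks without p300 and 0.988% of all starts. TEAD was at 4.97% (4.39 to 5.63) against 9.40% (8.48 to 10.4) and 3.08% of all starts. At equal GC content the RUNX difference from the DPF3a-SMAD4 peaks was -1.14 (-2.15 to -0.140) and that of TEAD -1.73 (-3.66 to 0.197). Members with RUNX or TEAD shared traits of those with AP-1. A start lay within 250 bp at 67.2% and 71.8% of them, and a protein-coding start within reach at 67.2% and 82.5%. Their median DPF3a fold enrichments were 6.59 and 6.51, beside 8.96 with AP-1. The TATA box (TATAAA) was at 0.935% (0.698 to 1.25) of the members, 2.43% of those peaks and 5.23% of all starts.

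The GC-rich SMAD element (GGCGCC) was at 14.0% (13.1 to 15.1) of the members and 8.10% (7.24 to 9.06) of the promoter DPF3a-SMAD4 peaks without p300. This difference of 5.93 percentage points (3.62 to 8.18) was 0.225 (-2.83 to 3.28) at equal GC content and -3.33 (-7.68 to 0.638) among CpG-rich sites only. Around all protein-coding starts the share was 12.3%. The short SMAD element (GTCTG) was at 17.5% of the members, 20.7% of that class (difference -3.12, -6.08 to -0.217) and 18.2% of all starts, and the difference was -1.16 (-4.43 to 2.11) at equal GC content. All motif counts are matches of letters and not measured binding, and the overlap of motifs with each other, such as GGCGCC with GC-rich sites, was not removed.

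**Figure D3:**
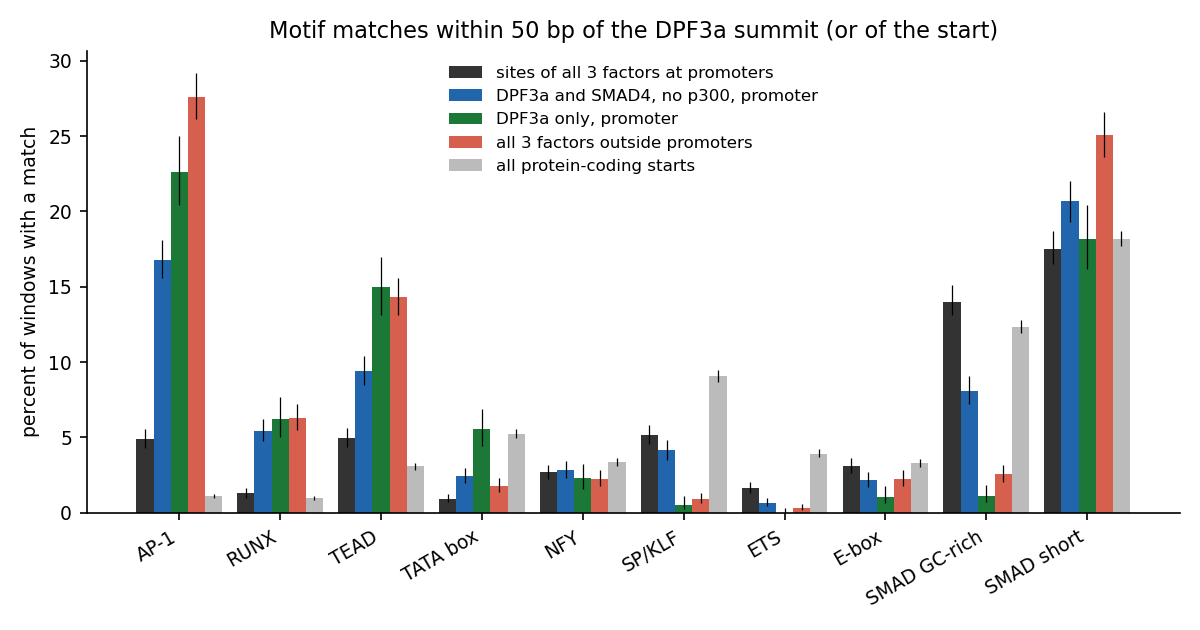
Percent of windows with a match (vertical axis, with 95% Wilson intervals) for 10 of the 18 motifs, within 50 bp of the DPF3a summit of members and of the 3 other classes and within 50 bp of the canonical start for all protein-coding genes. SMAD GC-rich is GGCGCC and SMAD short is GTCTG. AP-1 reaches 4.91% at members and 16.8% to 27.6% in the 3 other classes of DPF3a sites, whereas GGCGCC reaches 14.0% at members, at most 8.10% in those classes and 12.3% around all starts.

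The single strongest members were ranked by the product of the fold enrichment percentiles in the 3 lists, among members with a protein-coding start and over 20000 bp from an assembly gap. The 12 highest were at SLC9B1, METTL25, LAD1, GCFC2, CD22, NAT8, CDR2, BNC2, MFSD14B, THG1L, CUL3 and RCBTB2. Their DPF3a fold enrichment had a median of 11.5 and a range of 8.85 to 14.7, that of SMAD4 a median of 13.2 and a highest value of 18.0, and that of p300 a median of 8.38 and a range of 6.88 to 8.88. Divergent starts were found at 5 of the 12. At LAD1, which encodes ladinin, an epithelial anchoring filament protein, DPF3a had 95 reads, SMAD4 150 and p300 84 at their summits, the most of the 12 for each factor. At CUL3, the scaffold of a ubiquitin ligase family, the DPF3a summit was at -155 bp, and DPF3a, SMAD4 and p300 had folds of 13.5, 13.2 and 6.88. At NAT8, an N-acetyltransferase gene known for expression in kidney and liver, the DPF3a fold of 14.7 was the highest of the 12. At CD22, a B cell receptor gene, the values were 11.3, 12.9 and 8.38. The site was at a divergent start and outside annotated genes, so it cannot be assigned to CD22 from position alone.

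The TGF-β and BMP pathway was followed because SMAD4 acts in it. Of its 43 listed genes, 15 held a member (34.9%, 22.4 to 49.8), while 79.1% had a DPF3a summit, 90.7% a SMAD4 summit and 69.8% a p300 summit. Over all protein-coding genes these 3 summit shares were 48.7%, 62.6% and 43.0%. The interval of the members' share spans the 24.0% of all protein-coding genes. In this list 72.1% of the genes were of the high CpG class, against 42.0% of all protein-coding genes, and within that class 38.7% (23.7 to 56.2) held a member against 36.4% of all.

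Among the receptors, members lay at TGFBR1 and TGFBR2, the type I and type II receptors of TGF-β, at the coreceptor TGFBR3, and at the activin and BMP receptors ACVR1, ACVR2A and BMPR1A. At TGFBR2 the DPF3a and SMAD4 summits were at -80 bp and -82 bp from the start and the p300 summit at 311 bp, with fold enrichments of 7.62, 9.75 and 6.10 and summit heights of 40, 99 and 25 reads. At TGFBR1 all 3 summits were downstream, the SMAD4 summit at 205 bp and those of DPF3a and p300 at 102 bp and 98 bp, with fold enrichments of 5.68, 8.65 and 4.97. TGFBR2 thus ranked above TGFBR1 in each list. At ACVR1 the values were 7.52, 11.1 and 5.22, with the DPF3a summit at -323 bp.

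Among the SMAD genes, members lay at SMAD3 and SMAD5, which receptors phosphorylate, and at SMAD4 itself. At SMAD3 the 3 summits lay within 9 bp, 149 bp downstream for DPF3a and 140 bp for the others, but the fold enrichments of 4.29, 5.81 and 3.90 were below the members' medians in all 3 lists. At SMAD4 the DPF3a summit was at -105 bp and the fold enrichments were 6.84, 9.89 and 4.58. At SMAD5 the p300 fold of 8.61 was the highest of the 15 genes. The genes that modulate the pathway with a member were SKIL, a corepressor of SMAD proteins, SMURF2, a ubiquitin ligase for SMADs and receptors, ZFYVE9, which presents SMADs to the receptor, and LTBP3, which binds latent TGF-β. SKIL had the tallest SMAD4 summit of the 15, with 389 reads, also the most at any member, at a fold enrichment of 9.04. Its SMAD4 summit lay at 49 bp and its p300 summit at -325 bp. The ligand subunit gene INHBA also held a member, with fold enrichments of 3.98, 5.39 and 5.16.

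No member was counted at other genes of the list that had a summit of every factor near a start, such as SMAD7, the inhibitory SMAD, TGFB1, BMPR2 and TGIF1.

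Of 28 SWI/SNF subunit genes, 12 held a member (42.9%, 26.5 to 60.9, beside 24.0% of all protein-coding genes), while 21 had a DPF3a summit and 26 a SMAD4 summit. They were ARID1A and ARID1B, the DNA-binding subunits of BAF, PBRM1, the bromodomain subunit of PBAF that is often lost in clear cell renal cancer, SMARCC2 and SMARCE1 of the core, the BRD9 and BICRAL subunits of the noncanonical form, and SS18, SS18L1, BCL7B, BCL7C and DPF1. At PBRM1 the DPF3a summit was 10 bp downstream of the start, the fold enrichments were 5.70, 11.8 and 5.19 in the order DPF3a, SMAD4, p300, and the promoter was divergent. At ARID1B the DPF3a fold of 10.4 was the highest of the 12, and at ARID1A the product of the ranks was the lowest, with 4.59, 5.53 and 3.33. DPF3, which encodes the overexpressed isoform, had a SMAD4 summit but no DPF3a or p300 summit within 1000 bp of a start, and SMARCA4, the catalytic subunit, had summits of all 3 factors without a member. Of this list 85.7% of the genes were of the high CpG class, and within it 41.7% (24.5 to 61.2) held a member, an interval that spans the 36.4% of all genes of that class.

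Of the gene lists, 5 had a members' share whose interval lay above the 24.0% of all protein-coding genes, the SWI/SNF list and 4 others. Mitochondrial ribosomal proteins had one at 40 of 78 genes (51.3%, 40.4 to 62.1), cytosolic aminoacyl-tRNA synthetases at 10 of 20 (29.9% to 70.1%), proteasome subunits at 16 of 34 (47.1%, 31.5 to 63.3) and DNA replication and cell cycle genes at 20 of 47 (42.6%, 29.5 to 56.7). Within the high CpG class, where 36.4% of all genes held a member, the counts were 18 of 36 mitochondrial ribosomal proteins (34.5% to 65.5%), 2 of 5 synthetases (11.8% to 76.9%) and 14 of 33 replication and cell cycle genes (42.4%, 27.2 to 59.2), all with intervals that span 36.4%. For the proteasome it was 11 of 16 (68.8%, 44.4 to 85.8). In the same order, the folds were 7.18, 12.3 and 7.35 at MRPL48, 6.99, 10.8 and 8.06 at the proteasome gene PSMD6, and 6.80, 10.4 and 6.49 at ORC5, a subunit of the origin recognition complex. Each of these exceeded the members' median in every list, but they were named for ranking among the 3 highest of their gene list by these same folds. The gene lists also held members of very low rank, such as those at MRPL36 and PSMA7. At MRPL48 the 3 summits lay 19 bp, 78 bp and 75 bp downstream of the start, and at PSMD6 the DPF3a summit was at -2 bp, with SMAD4 at 53 bp and p300 at 75 bp. Splicing factors (16 of 50, 32.0%), hypoxia factors and targets (10 of 28, 35.7%), acetyltransferases, deacetylases and BET proteins (8 of 27, 29.6%) and the ZNF genes (140 of 508, 27.6%, 23.9 to 31.6) had intervals that span 24.0%. Of the hypoxia list, ANKRD37, a known target of hypoxia-inducible factors, carried their motif (TACGTGC, at 0.574% of the members and 0.334% of all protein-coding starts) within 50 bp of its DPF3a summit, with fold enrichments of 7.28, 9.73 and 6.33. EP300, the gene of p300, had SMAD4 and p300 summits but neither a DPF3a summit nor a member.

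Histone genes had SMAD4 and p300 summits but few members, while the members' share of cytosolic ribosomal protein genes was near that of all protein-coding genes. Cytosolic ribosomal proteins held a member at 17 of 88 genes (19.3%, 12.4 to 28.8), with a SMAD4 summit at 90.9%, a p300 summit at 60.2% and a DPF3a summit at 47.7% of them. Over all protein-coding genes the SMAD4, p300 and DPF3a shares were 62.6%, 43.0% and 48.7%. The interval of the ribosomal members' share spans the 24.0% of all genes. Within the high CpG class 10 of 50 ribosomal genes (11.2% to 33.0%) held a member, beside 36.4%. Replication-dependent histones held one at 1 of 68 genes (1.47%, 0.260 to 7.87), H4C4, although 72.1% had a SMAD4 summit and 55.9% a p300 summit. A DPF3a summit was found at 11.8% (6.08 to 21.5) of the histone genes, the smallest share of the 3 lists. Histone genes lie close together and have nearly identical copies, and reads of low mapping quality were removed, so their counts are uncertain. H4C4 had fold enrichments of 6.32, 9.81 and 6.28, above the members' median in each list and, for p300, above the upper quartile of 5.84.

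Some lists of lineage and matrix genes held few members beside the 24.0% of all protein-coding genes. Collagens, laminins and matrix proteases had one at 6 of 97 genes (6.19%, 2.87 to 12.8), HOX genes at 1 of 39 (2.56%, 0.454 to 13.2), and olfactory receptors, keratin-associated proteins and haematopoietic markers at 0 of 415, 94 and 30. Of these last 3 lists, 98.1%, all and 83.3% of the genes were of the low CpG class, in which 1.34% of the promoters held a member. Of the 8 cell movement genes that the study followed, only MMP16, a membrane-bound matrix metalloprotease, held a member, with fold enrichments of 6.79, 7.69 and 4.35. The interval of this share (12.5%, 2.24 to 47.1) spans 24.0%. COL1A1 and ZEB1 had summits of all 3 factors near a start without a member. Of the renal markers, PAX2 and PAX8 had DPF3a and SMAD4 summits but no p300 summit, and LHX1 had no summit. The renal lineage genes with a member were HNF4G and ESRRG, 2 of 19 (10.5%, 2.94 to 31.4), an interval that spans 24.0%. None of the blood markers PTPRC, CD3E, SPI1 and CD79A had a summit. Of the neuronal markers, SNAP25, a gene of synaptic vesicle fusion, held a member with 20 DPF3a, 23 SMAD4 and 19 p300 reads, whereas SYP had DPF3a and SMAD4 summits only and NEUROD1 and GRIN1 none. Of the 30 synaptic and neuronal genes 3 held a member (3.46% to 25.6%), an interval that spans 24.0%. A peak is not a measure of expression, which was not measured in these samples.

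**Figure D4:**
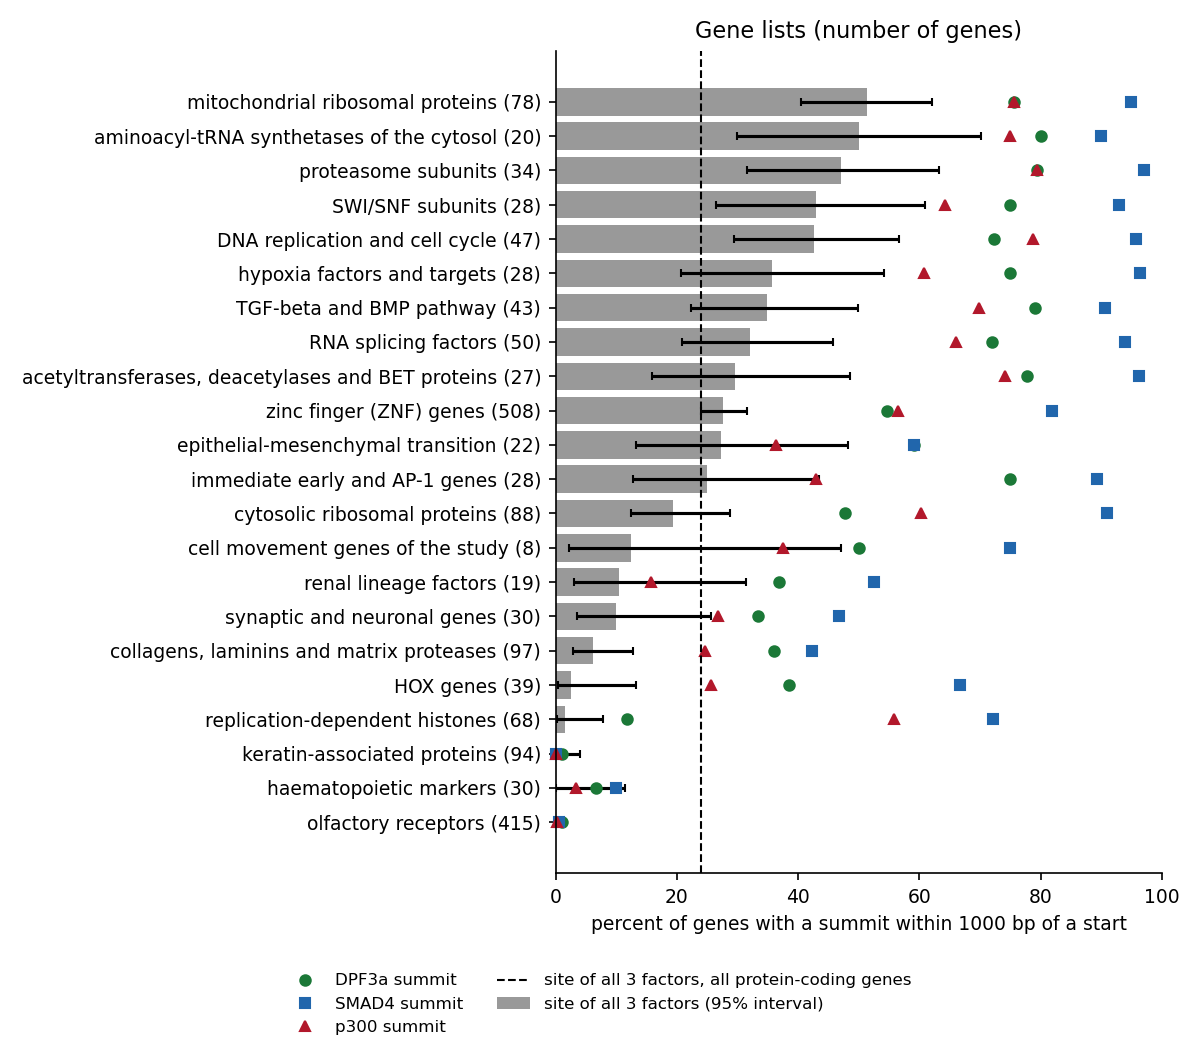
Percent of the genes of each list with a member (bars with 95% Wilson intervals) and with a summit of DPF3a, SMAD4 or p300 (points) within 1000 bp of a start, with the number of genes in brackets and a dashed line at the 24.0% of all protein-coding genes with a member. Mitochondrial ribosomal proteins reach 51.3% and histones 1.47%, while their SMAD4 points lie at 94.9% and 72.1%. The lists are described by their counts only, and no list was tested against others.

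Genes of immediate early response and epithelial-mesenchymal transition had members near the background, at 7 of 28 (12.7% to 43.4%) and 6 of 22 (27.3%, 13.2 to 48.2). In the first list ATF3, CCN2 and KLF4, all induced by growth or stress signals, ranked highest, with DPF3a fold enrichments of 9.37, 10.3 and 11.0. These were above the upper quartile of the members (7.03). The p300 folds of ATF3 and CCN2, 4.53 and 5.43, lay between the members' quartiles of 4.17 and 5.84, and that of KLF4, 3.75, lay below the lower one. In the second list CLDN1 and EPCAM, components of epithelial junctions and surface, and SNAI2, a repressor of epithelial genes, ranked highest, with DPF3a folds of 5.08, 5.51 and 5.65.

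Most genes held a single member. Of the 4801 protein-coding genes, 4624 had 1, 168 had 2 and 9 had 3 or more, and only 2 starts were the nearest start of more than 1 member. TBCD, a tubulin folding cofactor, had 4 members at alternative starts over 134113 bp. CREB5, DPP9, IST1, JMJD1C, MECOM, P2RY6 and RERE had 3 each. At CREB5, a CREB-family transcription factor gene, they spread over 276843 bp, and the middle one, 26 bp downstream of an alternative start, was the strongest of the 3, with 140 DPF3a, 213 SMAD4 and 46 p300 reads. At RERE, a corepressor gene, the 3 sites had SMAD4 folds of 7.54, 5.67 and 12.6 and p300 folds of 4.23, 5.19 and 8.41, so 1 of its starts was well above the other two in both lists. At MECOM, a locus of several leukaemia-associated transcripts, all 3 sites had DPF3a folds of at most 4.63, below the lower quartile of the members (5.17).

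Members were unevenly spread over the chromosomes. Of the protein-coding genes of chromosome 7, 36.8% (33.7 to 39.9) held a member, and on chromosome 10 it was 35.1% (31.7 to 38.6). The share was 10.5% (9.04 to 12.2) on chromosome 19, 12.1% (9.38 to 15.4) on chromosome 22, 8.28% (6.35 to 10.7) on chromosome 14 and 6.75% (5.26 to 8.63) on chromosome X. On chromosome 14 66.4% of the genes had a SMAD4 summit, slightly more than the 64.4% of chromosome 7, but 37.5% a DPF3a summit and 32.6% a p300 summit against 56.6% and 52.9%. The median local background at members, in reads, was 1.72 for DPF3a and 2.94 for p300 on chromosome 14, 1.72 and 2.66 on chromosome X and 3.74 and 6.26 on chromosome 7, the highest for DPF3a. The part of the lower background in the share of genes was not tested. On chromosomes 19 and 22 the p300 backgrounds were 6.34 and 5.55, and the DPF3a backgrounds 2.84 and 2.61. The values by chromosome were looked at after the data were seen.

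**Figure D5:**
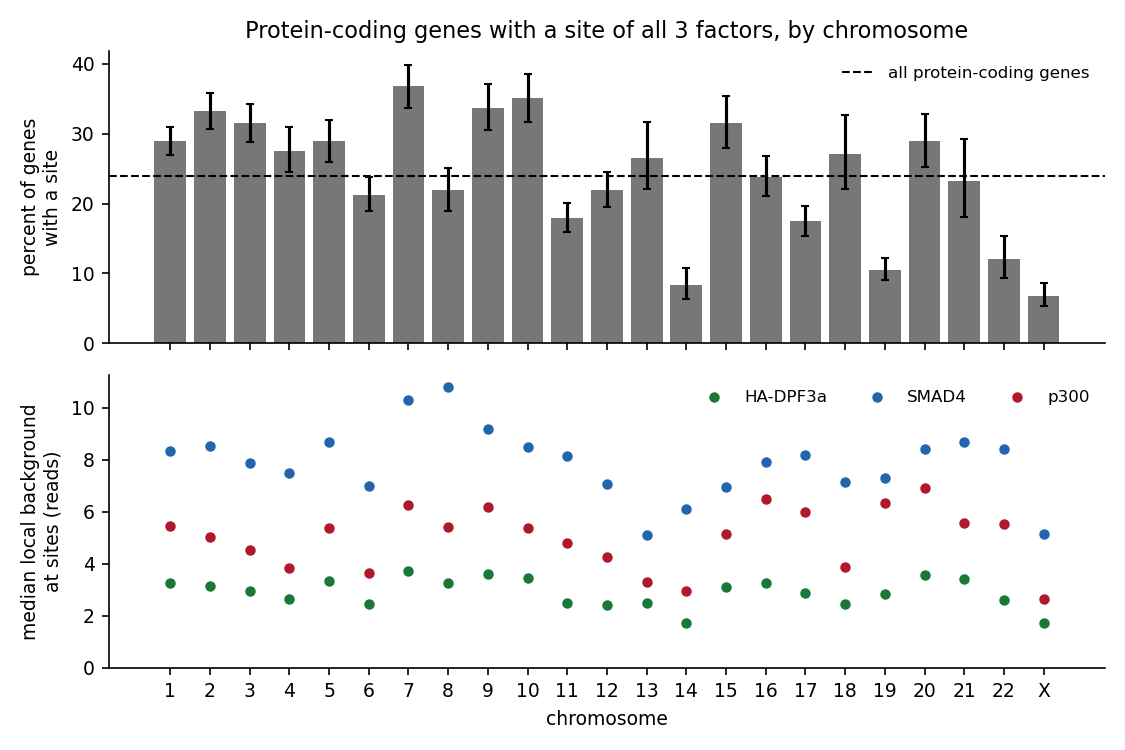
Percent of the protein-coding genes of each chromosome with a member (bars with 95% Wilson intervals, dashed line at 24.0%) above the median local background at members of that chromosome in reads (1 point per factor), without chromosome Y. Chromosomes 14 and X, at 8.28% and 6.75%, have the lowest DPF3a background of those shown, 1.72 reads, and chromosome 7, at 36.8%, the highest, 3.74 reads.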

How the data were processed

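The authors' methods give read trimming, mapping to hg38 by Bowtie2 2.3.5.1, removal of duplicates and of reads mapped poorly or to the mitochondrial genome, and peak calling by MACS2 2.2.5. The deposited lists hold 1 set of peaks per factor from 2 libraries. How the libraries were combined is not given in the sources used here, and no input library is named. In the deposited lists the score is −log10 q multiplied by 10 and truncated, and is above 50 throughout. The fold enrichment that the authors deposited is a ratio of pileup to local background. The deposited −log10 p and −log10 q compare the pileup with a Poisson distribution. Without a named input, reads that open or GC-rich chromatin adds to all 3 lists cannot be told apart from binding. Depth limits the values, since a member can rest on 14 reads at its p300 summit.

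Summit height and local background were computed from the deposited fold enrichment and −log10 p, and the recovered −log10 p was at most 8.1e-04 off. Peaks were joined to GENCODE 44 on hg38. The overlap code gave calls identical to bedtools 2.31.1 in 9 of 9 combinations, and the recovery, motif and interval code was tested on simulated data. Shares have Wilson intervals, differences other than those at equal GC content Newcombe intervals, and the 54 motif differences an interval widened by Bonferroni's correction. Promoters were classed as high CpG where the sequence within 500 bp of the canonical start had a CpG ratio over 0.75 and a GC fraction over 0.55, and as low with a ratio under 0.48. Differences at equal GC content weight GC bins of 0.05 by the members, have intervals symmetric around the difference and were called only with at least 10 matches in both classes. Scripts used Python 3.11.15, numpy 2.4.6, scipy 1.17.1 and pysam 0.24.0.

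Samples were grouped by the factor in their titles. The members, gene lists and motifs were chosen with earlier results of these data known. Genes were named by rule: the 12 highest ranks, all genes of the TGF-β, cell movement and SWI/SNF lists with a member, the 3 highest ranks of every other list, and genes with 3 or more members. Genes without a member that are named, and the renal, blood and neuronal markers, are outside that rule. A few genes that the rule or the lists would name are not reported here. Printed sequence windows were chosen after the motif counts were seen. Alternatives were a score over 100, other overlaps, promoter widths, starts, anchors and windows, GC bins and, added after the data were seen, CpG-rich sites only and the removal of the 4 members within 20000 bp of an assembly gap.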

Additional observations from a re-analysis of the deposited data

How the results depend on the processing

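No paired analysis was possible because the 2 replicates of a factor share 1 peak list, so a replicate could not be left out either. Of 156 recomputed values over 50 results, 107 were counted as kept. Differences had to keep their direction and their side of the interval, and shares and medians to stay within the main value's counting error. Counts had only to stay within a fixed ratio of the main value, which 3811 and 6846 members beside 4704 did. The number of members was 1187 with scores over 100 and 1027 with an overlap of 0.8, and between 3811 and 6846 in the remaining alternatives. The percent of protein-coding genes with a member was 5.81 with scores over 100, 33.8 with an overlap of 1 bp and 21.5 with canonical starts only. The percent of members at divergent starts was 11.0 with protein-coding starts, 29.5 with starts at most 500 bp apart and 34.6 among CpG-rich sites. With canonical starts the median offsets of DPF3a, SMAD4 and p300 were 34.0, 29.0 and 106 bp, against 10, 0 and 68.0 bp with the nearest start of any transcript, and the p300 offset was 76.0 bp with scores over 100. With those scores 57.1% of the SMAD4 and 68.7% of the p300 summits were downstream of the canonical start. The median CpG ratio was 0.789 with 500 bp on either side of the summit. The number of motifs whose share differed from promoter DPF3a-SMAD4 peaks without p300 fell from 7 to 4 with scores over 100, to 2 in GC bins and to 2 among CpG-rich sites. Against promoter peaks touching neither list it fell from 8 to 2 in GC bins and 1 among CpG-rich sites, and against sites outside promoters from 9 to 4 and 1. In the comparison with peaks touching neither list only 32 sites were CpG rich. AP-1 stayed rarer at members, with its interval below 0, in all alternatives run. Among CpG-rich sites the differences of TEAD (0.0869) and GGCGCC (-3.33) from promoter DPF3a-SMAD4 peaks without p300 and of RUNX (0.659) from peaks touching neither list changed sign, as did GGCGCC from the latter in GC bins (-0.876). The cause was not tested.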
